A study of Mus musculus with 12 samples.

Results

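The Hedgehog pathway of the mouse fundic mucosa, which lines the acid-secreting part of the stomach, was followed through 8 genes: the ligands Shh and Ihh, the receptor Ptch1, the signal transducer Smo, the transcription factors Gli1, Gli2 and Gli3, and the ligand-binding inhibitor Hhip. Every probe set annotated to 1 of these symbols was taken, which gave 12 of the 22626 probe sets tested and 8 of 12393 genes named by them. Each probe set pools several short oligonucleotides for a gene, and the suffixes _s_at and _x_at mark those whose oligonucleotides can match more than 1 transcript. Its intensity is reported in arbitrary units as deposited. Total RNA from mucosal scrapings was measured on 12 one-colour arrays, 3 in each of 4 groups. The groups were gastrin knockout mice infused with gastrin, mice lacking both gastrin and cholecystokinin (CCK), gastrin knockout mice infused with saline, and wild-type mice. The mice of all 3 knockout groups thus lacked the gastrin gene, and mice were infused for 1 week. An age (2 months) and a sex (male) are labelled for the saline-infused knockouts only. The labels do not describe the double-knockout or wild-type mice as infused, so infusion is part of any comparison of those groups with an infused one. A wild-type sample came from a pool of about 2 to 4 mice. No label states that replicates were taken from separate animals, so p-values here cover the spread between samples alone, and that spread may be technical.

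Hedgehog ligands are secreted proteins that bind Ptch1, which without ligand keeps the membrane protein Smo inactive. Once released, Smo acts through the primary cilium on the Gli proteins, of which Gli2 serves mainly as an activator and Gli3 mainly as a repressor, while Gli1, Ptch1 and Hhip are themselves transcribed in response to the pathway. In the gastric epithelium Shh is known as a product of parietal cells and Ihh as a product of surface mucous cells, and the mesenchyme beneath the glands is a main responder.

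The targeted gene and the tissue were checked first. Gast, which encodes gastrin, read -72, -34 and -43 in gastrin-infused knockouts, -64, -35 and -162 in double knockouts and 37, -8 and 31 in saline-infused knockouts, against 596, 318 and 823 in wild type. It was at least 6.06-fold, 7.18-fold and 5.94-fold lower than in wild type in those 3 knockout groups, in the same order (limma adjusted p = 0.00146, 0.000547 and 0.00236). The Cck probe set was above the noise on only 3 of 12 arrays and so checks nothing about the double knockout. The noise level of an array was taken from its own negative values and lay between 67 and 96. Array medians lay between 403 and 421, and the log2 values of replicate arrays correlated with r of 0.955 to 0.973. The fundic markers were bright: Atp4a, the proton pump subunit of parietal cells, averaged 58696 in gastrin-infused knockouts, 39921 in double knockouts, 38737 in saline-infused knockouts and 60910 in wild type. The double-knockout arrays stood apart from the rest, with a highest intensity of 65365 to 71514 against 88899 to 113441 elsewhere, and with a bacterial spike-in control, BioC, at 1784 to 2307 against 4435 to 7472. A ratio of 3-prime to 5-prime Gapdh control signal, a sign of RNA or target quality, was 1.17 to 1.21 in gastrin-infused knockouts, 1.29 to 1.32 in double knockouts, 1.01 to 1.18 in saline-infused knockouts and 0.98 to 2 in wild type. The summed level of 11 forestomach markers, of which 7 were above the noise on every array, was between 5080 and 48213 and was spread widely within every group. For 5 chief-cell markers (4 above the noise on every array) the sum was 97590 to 102079 in double knockouts and 132871 to 168215 over the other groups. For 5 intestinal markers (1 above, with Cdx2 within the noise) it was 1757 to 1965 in double knockouts and 663 to 1572 over the other groups. For 4 pancreatic markers (3 above) it was 4941 to 7164 over all arrays.

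Transcripts of 7 of the 8 Hedgehog genes were detected in all 4 groups. In all, 9 of the 12 probe sets were above the noise on every array, and 5 had a mean no lower than the median probe set of the array. The exceptions were both probe sets of Hhip and 1 of the 2 for Gli2, whose means lay within the noise. None of the 12 probe sets passed the test (limma with Benjamini-Hochberg adjustment over 22626 probe sets, adjusted p under 0.05) in any of the 6 pairwise comparisons or in the F-test for any difference among the 4 groups. The share of all probe sets that passed was 1.25% for gastrin-infused against saline-infused knockouts, 5.98% for double against saline-infused knockouts and 5.83% for gastrin-infused against double knockouts. Against wild type it was 0.11% for gastrin-infused knockouts, 4.14% for double knockouts and 2.08% for saline-infused knockouts, and in the F-test it was 7.7%. With 12 probe sets, a count of 0 lies near these backgrounds and does not set the Hedgehog genes apart from the other genes.

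At an unadjusted p under 0.05, 1 of the 12 probe sets differed in each pairwise comparison and 2 in the F-test, against a background of 26.4% of all probe sets in the F-test. In the pairwise comparisons that background was 16% for gastrin-infused against saline-infused knockouts, 21.5% for double against saline-infused knockouts and 21.6% for gastrin-infused against double knockouts. Against wild type it was 11.6% for gastrin-infused, 19.6% for double and 17.8% for saline-infused knockouts. The probe sets were Shh in both comparisons of another knockout group with the saline-infused knockouts, 1 of the 2 Ptch1 probe sets in all 3 comparisons with wild type, and a Hhip probe set within the noise in the comparison of gastrin-infused with double knockouts. In the F-test they were Shh and that Ptch1 probe set. Log2 fold changes of the 9 probe sets above the noise, 54 in all, lay between -0.73 and 0.65. In 45 of the 54, the 95% confidence interval lay inside -1 to 1, and in the other 9 it reached beyond.

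**Figure D1:**
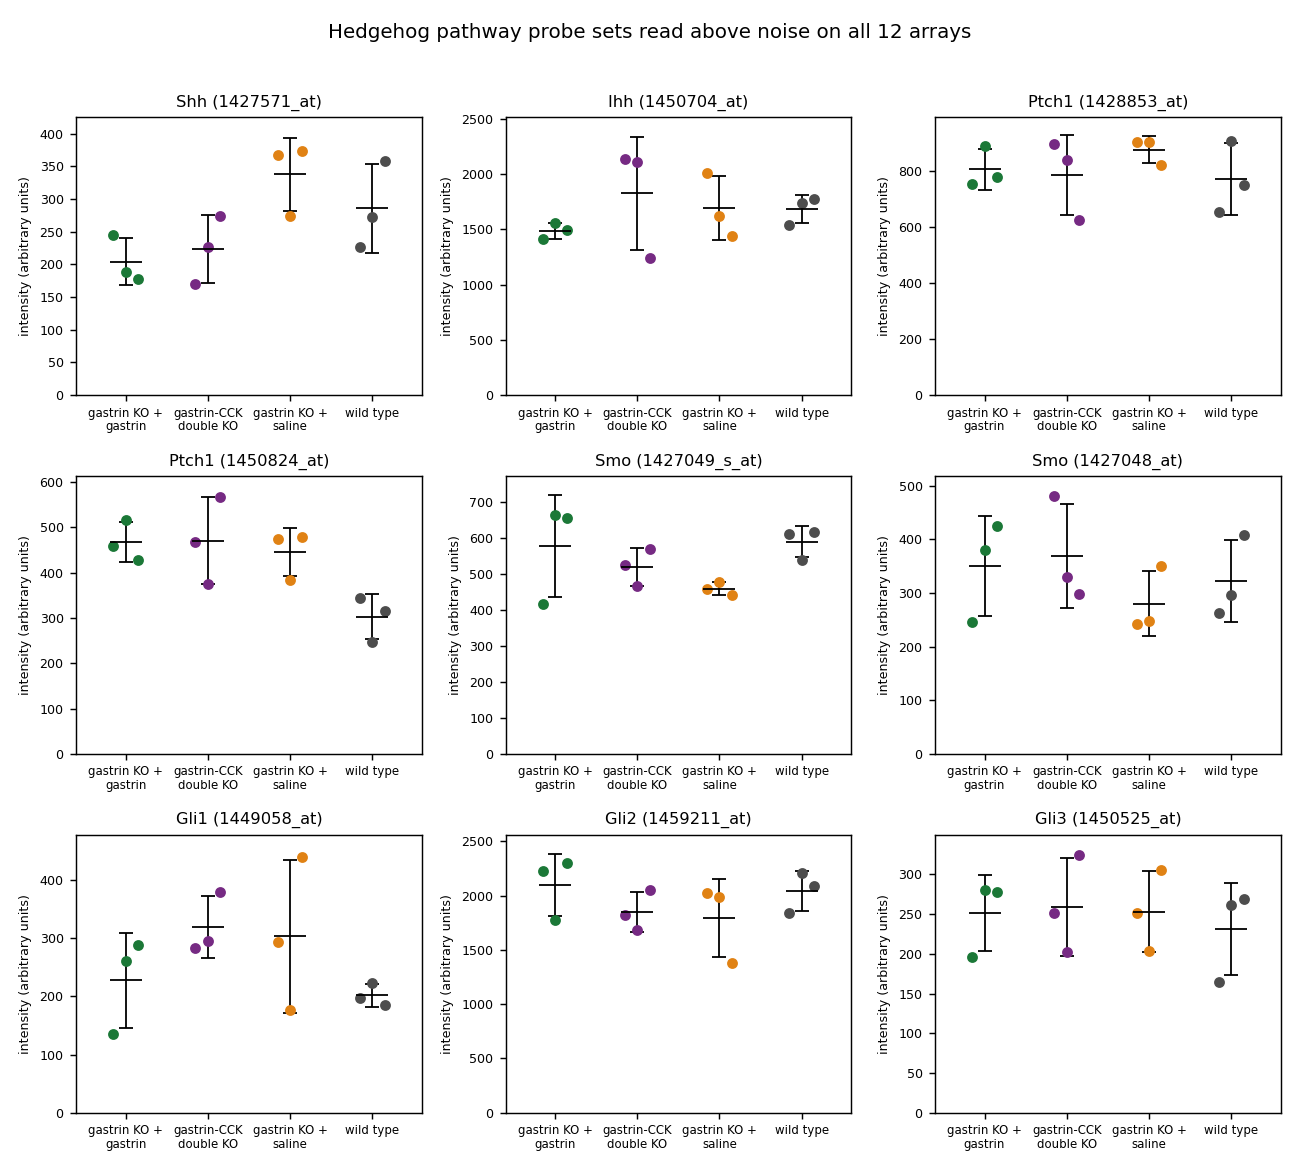
Intensity (arbitrary units, linear axis) of the 9 Hedgehog probe sets above the noise, with 1 panel per probe set and the groups in the order gastrin-infused gastrin knockout, double knockout, saline-infused gastrin knockout and wild type. Points are single arrays, the bar is the group mean and the error bar the SD (n = 3); the groups overlap in most panels, and all 9 knockout arrays lie above the 3 wild-type arrays for Ptch1 probe set 1450824_at.

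Of the ligands, Shh varied more between the groups than Ihh. Shh, the morphogen linked to parietal cells, read 245, 189 and 178 in gastrin-infused knockouts, 170, 227 and 274 in double knockouts, 367, 274 and 373 in saline-infused knockouts, and 226, 272 and 359 in wild type. The gastrin-infused values all lay below the saline-infused ones, while wild-type values overlapped with those of every other group. The highest double-knockout value only equalled the lowest saline-infused one. In order of the means, saline-infused knockouts stood highest (338 ± 55.5, SD, n = 3), then wild type (286 ± 67.5), double knockouts (224 ± 52.1) and gastrin-infused knockouts (204 ± 35.9), and neighbours in that order overlapped. The highest group mean was 1.66 times the lowest.

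For gastrin-infused against saline-infused knockouts, the log2 fold change of Shh was -0.73 ± 0.23 (SE, 95% confidence interval -1.25 to -0.20), which did not pass (unadjusted p = 0.0119, limma adjusted p = 0.166). Shh was the only 1 of the 12 probe sets whose values did not overlap in that comparison, where 20.8% of all probe sets did not overlap. For double against saline-infused knockouts the value was -0.61 ± 0.23 (interval -1.13 to -0.08, limma adjusted p = 0.166). The comparisons share the saline-infused arrays and so are not independent of each other. Against wild type the log2 fold change of Shh was -0.47 in gastrin-infused knockouts, -0.35 in double knockouts and 0.26 in saline-infused knockouts, with limma adjusted p of 0.481, 0.458 and 0.616 in the same order.

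The parietal cells that are a known source of Shh were followed through 11 measured markers, all above the noise on every array. Their summed level was 234326 to 241785 in gastrin-infused knockouts, 160547 to 169609 in double knockouts, 173870 to 206809 in saline-infused knockouts and 222159 to 260182 in wild type. In gastrin-infused against saline-infused knockouts, 6 of the 11 parietal genes rose by the test, and in saline-infused knockouts against wild type 4 fell. Of all probe sets, 1.25% and 2.08% passed in these comparisons, in the same order. The mean of Shh ran the other way in both comparisons, though its differences did not pass. In double knockouts against wild type, where 4.14% of all probe sets passed, 2 of the 11 parietal genes fell, Atp4a and Atp4b. The mean of Shh was lower there too, without passing. Atp4a and Atp4b lay at percentiles 99.9 and 100 of mean intensity. The double-knockout arrays had the lower top intensity given above, and its part in these falls was not tested. Of the remaining comparisons, 7 of the 11 were higher in gastrin-infused than in double knockouts, and 1 rose and 1 fell in double against saline-infused knockouts. Of all probe sets, 5.83% and 5.98% passed in these, in the same order. Against wild type none of the 11 passed in gastrin-infused knockouts, where 3 had an unadjusted p under 0.05 (limma). There, 0.11% of all probe sets passed and 11.6% had such an unadjusted p.

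The median of the forestomach markers had the same sign as the Shh difference in the comparisons with saline-infused knockouts. Their median log2 fold change over 11 genes was -1.15 in gastrin-infused against saline-infused knockouts and -0.38 in double against saline-infused knockouts. In saline-infused knockouts against wild type it was 0.96. Each of these values rests on the same saline-infused arrays. The signs were opposite in double knockouts against wild type, where the marker median was 0.38 and Shh was -0.35. For gastrin-infused knockouts the marker median was -0.20 against wild type, where Shh was -0.47. Against double knockouts it was -0.87, where Shh was -0.12. Of the 11, Ly6d alone passed: it averaged 1405 ± 422 in gastrin-infused knockouts, 2553 ± 640 in double knockouts, 4242 ± 424 in saline-infused knockouts and 1918 ± 338 in wild type (SD, n = 3 each). Its log2 fold change was -1.63 ± 0.24 for gastrin-infused against saline-infused knockouts (limma adjusted p = 0.0255) and 1.15 ± 0.24 for saline-infused knockouts against wild type (adjusted p = 0.0484). The shares of all probe sets that passed were 1.25% and 2.08% in the same order. The summed forestomach level was 5080, 21679 and 8711 in gastrin-infused knockouts, 39532, 6302 and 45520 in double knockouts, 42960, 11819 and 48213 in saline-infused knockouts, and 22180, 9746 and 7463 in wild type. Ly6d did not follow that sum on every array. On the saline-infused array with a sum of 11819 it read 3787, against 4627 and 4313 on the other saline-infused arrays. In double knockouts it read 2077 at a sum of 39532, 2302 at 6302 and 3280 at 45520. Among the saline-infused arrays, the one with the lowest forestomach sum also had the lowest Shh, 274. In gastrin-infused knockouts and in wild type, the array with the lowest sum had the highest Shh of its group, 245 and 359. In double knockouts it had the middle value, 227. In bulk RNA, fewer cells of a type and less RNA per cell cannot be told apart, and the part of parietal cells and of forestomach tissue in the Shh values was not tested.

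Ihh, the ligand linked to surface mucous cells, was bright and close to level. It read 1409, 1556 and 1493 in gastrin-infused knockouts, 2133, 2110 and 1237 in double knockouts, 2013, 1618 and 1443 in saline-infused knockouts, and 1537, 1735 and 1771 in wild type. All groups overlapped, and the spread within the double knockouts, which held both the highest and the lowest value of all, exceeded any gap between means. The means were 1486 ± 73.7, 1827 ± 511, 1691 ± 292 and 1681 ± 126 in the same order (SD, n = 3 each), and the largest was 1.23 times the smallest. The 6 log2 fold changes of Ihh lay between -0.26 and 0.08 with a standard error of 0.21, and their 95% intervals lay within -0.72 to 0.55.

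The 6 surface mucous markers measured, all above the noise on every array, had a summed level of 425076 to 469166 in gastrin-infused knockouts, 284600 to 308221 in double knockouts, 390610 to 470073 in saline-infused knockouts and 403100 to 472213 in wild type. Of these, 5 fell in the double knockouts against wild type and 5 against the saline-infused knockouts, and 5 were higher in the gastrin-infused than in the double knockouts. The shares of all probe sets that passed in these comparisons were 4.14%, 5.98% and 5.83%, in the same order. The mean of Ihh in double knockouts was the highest of the 4 groups, but its difference from each other group did not pass (limma adjusted p of 0.535 to 0.896). The double-knockout arrays also had the lower top intensity given above, and its part in the marker sums was not tested.

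Ptch1, the ligand receptor and itself a target gene of the pathway, was measured by 2 probe sets that gave different pictures. The brighter, 1428853_at, read 751, 887 and 776 in gastrin-infused knockouts, 895, 837 and 625 in double knockouts, 903, 901 and 819 in saline-infused knockouts, and 652, 906 and 749 in wild type. All groups overlapped, and its 6 log2 fold changes lay between -0.17 and 0.20, with 95% intervals within -0.52 to 0.55. The dimmer, 1450824_at, read 459, 517 and 428 in gastrin-infused knockouts, 469, 375 and 568 in double knockouts, 475, 384 and 479 in saline-infused knockouts, and 345, 248 and 315 in wild type. On this probe set each of the 9 knockout arrays read higher than each wild-type array, and the 3 knockout groups overlapped with one another.

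The log2 fold change of Ptch1 on 1450824_at against wild type was 0.64 in gastrin-infused knockouts (95% interval 0.24 to 1.04, limma adjusted p = 0.254), 0.63 in double knockouts (0.23 to 1.03, adjusted p = 0.0869) and 0.57 in saline-infused knockouts (0.16 to 0.97, adjusted p = 0.146). None passed, and all 3 comparisons share the same wild-type arrays. Groups did not overlap with wild type for 1 of the 12 Hedgehog probe sets in gastrin-infused knockouts, 2 in double knockouts and 2 in saline-infused knockouts, against 16.7%, 24.5% and 23.4% of all probe sets in the same order. Among the knockout groups the differences of this probe set were 0.01 to 0.07. Its lowest value, 248, was on the wild-type array with the highest Gapdh 3-prime to 5-prime ratio, 2.00. With that ratio as a covariate the log2 fold change of Ptch1 1450824_at in double knockouts against wild type was 0.59 ± 0.18 (limma adjusted p = 0.13). With probe sets below the median of intensity left out it was 0.63 ± 0.17 and passed (adjusted p = 0.0311). The 95% interval of the brighter probe set in the comparison of double knockouts with wild type, like the rest of its intervals, ended below the 0.63 of the dimmer one, and no test here settles which of the probe sets follows the Ptch1 transcript.

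**Figure D2:**
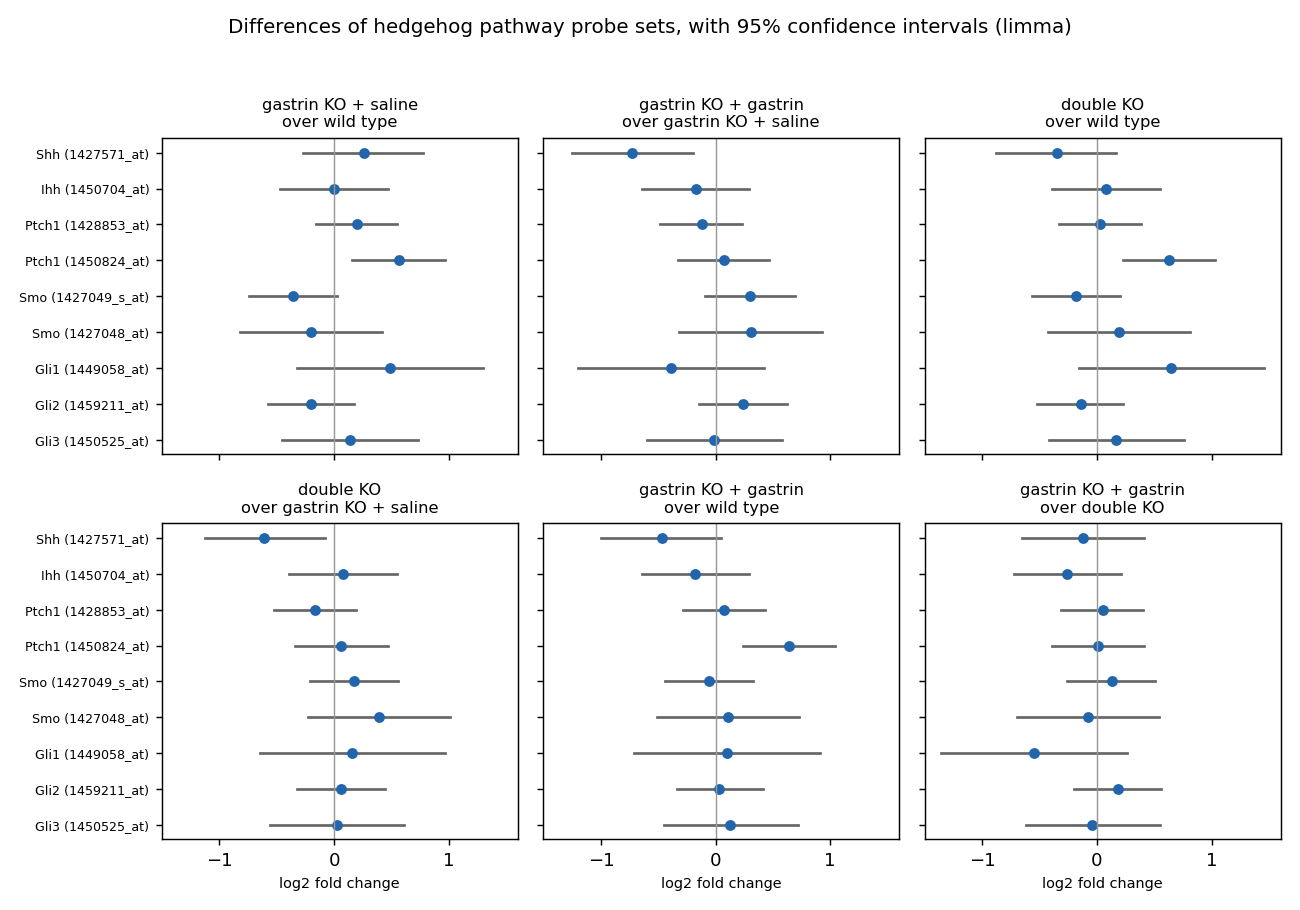
Log2 fold change (points, first-named group over second) and 95% confidence interval (lines) of the 9 Hedgehog probe sets above the noise in the 6 pairwise comparisons, 1 panel per comparison, n = 3 arrays per group. The 54 values lie between -0.73 and 0.65, and 5 intervals do not include 0: Shh against the saline-infused knockout in 2 comparisons, and Ptch1 1450824_at against wild type in 3.

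Smo, the membrane protein that passes the signal on, had 2 probe sets. On 1427049_s_at it read 415, 664 and 655 in gastrin-infused knockouts, 524, 465 and 570 in double knockouts, 459, 478 and 440 in saline-infused knockouts, and 610, 539 and 617 in wild type. The saline-infused values all lay below the wild-type values, and all other pairs of groups overlapped. Saline-infused knockouts against wild type gave a log2 fold change of -0.36 ± 0.17 (95% interval -0.74 to 0.03, limma adjusted p = 0.313). On 1427048_at, Smo averaged 350 ± 92.9 in gastrin-infused knockouts, 369 ± 97.4 in double knockouts, 280 ± 61.2 in saline-infused knockouts and 322 ± 76 in wild type (SD, n = 3 each). All groups overlapped on it, and its log2 fold changes were between -0.20 and 0.39.

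Of the Gli transcription factors, Gli1, the target gene most used as a readout of the pathway, was the most spread between samples. It read 135, 261 and 288 in gastrin-infused knockouts, 283, 296 and 380 in double knockouts, 294, 176 and 440 in saline-infused knockouts, and 198, 224 and 185 in wild type. The double-knockout values all lay above the wild-type values, and each infused group overlapped with wild type and with the double knockouts. Double knockouts against wild type gave a log2 fold change of 0.65 ± 0.36 (95% interval -0.16 to 1.46, limma adjusted p = 0.365). For gastrin-infused against saline-infused knockouts it was -0.39 ± 0.36 (interval -1.20 to 0.42), an interval that holds both a sizeable fall and a rise.

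Gli2, the main activator, was bright on 1459211_at and close to level. It read 2229, 1776 and 2302 in gastrin-infused knockouts, 1818, 1688 and 2050 in double knockouts, 2023, 1988 and 1380 in saline-infused knockouts, and 1842, 2209 and 2086 in wild type. All groups overlapped, and its log2 fold changes were between -0.20 and 0.24. The other Gli2 probe set, 1446086_s_at, lay between -90 and 15 on all 12 arrays and was listed under the same transcript accession, so that the probe sets gave a bright level and no measurable level for 1 gene.

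Gli3, known mainly as the repressor, had a single probe set, with the smallest range of group means among the 9. It read 196, 281 and 278 in gastrin-infused knockouts, 251, 202 and 325 in double knockouts, 251, 203 and 306 in saline-infused knockouts, and 165, 261 and 269 in wild type. All groups overlapped, the largest group mean was 1.12 times the smallest, and the log2 fold changes lay between -0.04 and 0.17. Hhip, which binds and sequesters the ligands and is induced by the pathway, was not measurable here. Its 2 probe sets lay between -44 and 161 and between -63 and 58, and only 1 value, 161 on a wild-type array, was above the noise. No fold change is given for Hhip, although 1 of its probe sets did not overlap between gastrin-infused and double knockouts, where 26.3% of all probe sets did not. No probe set of the 8 genes failed to overlap between double and saline-infused knockouts, against 26.1% of all.

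**Figure D3:**
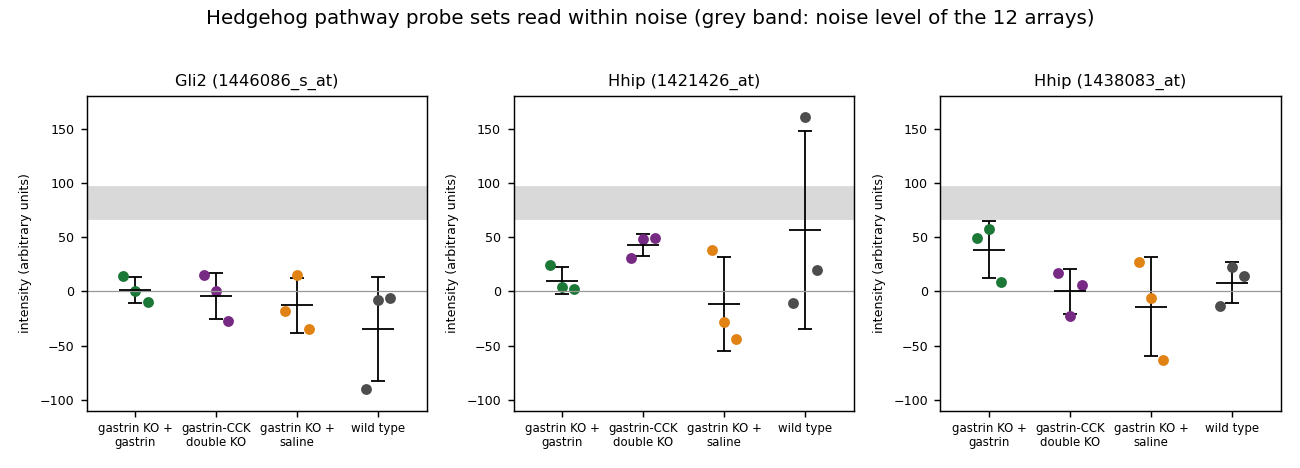
Intensity (arbitrary units, linear axis) of the 3 Hedgehog probe sets with means within the noise, by group in the order gastrin-infused gastrin knockout, double knockout, saline-infused gastrin knockout and wild type. Points are single arrays, the bar is the mean, the error bar the SD (n = 3) and the grey band spans the noise levels of the arrays, 67 to 96; 1 of the points, a wild-type value of Hhip, lies above it.

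As a group, with the brightest probe set of each gene, the median log2 fold change of the 8 Hedgehog genes was -0.15 for gastrin-infused against saline-infused knockouts, 0.07 for double against saline-infused knockouts and -0.08 for gastrin-infused against double knockouts. Against wild type it was -0.01 in gastrin-infused knockouts, 0.05 in double knockouts and 0.07 in saline-infused knockouts. The median over all probe sets was 0.00 in each. The 8 genes include Hhip, whose fold changes rest on values within the noise, so no direction is read from these small medians. Mesenchymal cells, the usual site of Ptch1 and Gli expression, were followed through 14 stroma and muscle markers, 12 of them above the noise on every array. Their summed level was 21218 to 43758 in gastrin-infused knockouts, 13500 to 17483 in double knockouts, 11699 to 21880 in saline-infused knockouts and 20068 to 23901 in wild type. The 43758 came from gastrin-infused replicate 1 alone, and its replicates had sums of 26370 and 21218. On that array the muscle marker Acta2 read 14904, against 5580 and 5610 on its replicates. The double-knockout sums were uneven in make-up. On replicate 3, with the sum of 13500, Vim on 1450641_at read 4956, against 526 and 531 on its replicates. Col3a1 on 1427883_a_at read 1109 there, against 3415 and 2633. By limma, 2 of the 14 genes, Sparc and Col1a1, had a probe set that fell in double knockouts against wild type and that was higher in gastrin-infused than in double knockouts. With the brightest probe set of each gene the count was 1 in both, and 5 and 9 of the 14 had an unadjusted p under 0.05. Over all probe sets, 4.14% and 5.83% passed in these comparisons and 19.6% and 21.6% had such a p, in the same order. None of the 14 passed in the other comparisons, where 1 to 3 of them had such a p, against 11.6% to 21.5% of all probe sets. The part of the stromal share in the Ptch1, Gli1 and Gli3 values was not tested.

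The rest of the pathway was read through 43 listed genes for ligand release, receptor partners, cilium and transducer proteins and gut target genes, of which 33 were measured by 64 probe sets. With 1 probe set per gene, the brightest, 1 gene fell in saline-infused knockouts against wild type and 1 rose in double against saline-infused knockouts, and none passed in the other 4 comparisons, where 3 to 7 of the 33 had an unadjusted p under 0.05. The median log2 fold change of the 33 genes lay between 0.00 and 0.12. Counting all 64 probe sets, 3 fell in saline-infused knockouts against wild type, 1 rose in double knockouts against wild type, 3 rose in double against saline-infused knockouts and 1 was lower in gastrin-infused than in double knockouts. For gastrin-infused against saline-infused knockouts and against wild type the limma count was 0, with 10 and 5 of the 64 at an unadjusted p under 0.05. Over all probe sets tested, 2.08%, 4.14%, 5.98% and 5.83% passed in those 4 comparisons with calls, in the same order, and 16% and 11.6% had such an unadjusted p in the other 2. The pathway counts lie near these backgrounds and do not set the lists apart. The probe sets that passed belonged to Ccnd2, Spop and Prkaca.

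Ccnd2, the cell-cycle gene cyclin D2 and a Hedgehog target in other tissues, fell in saline-infused knockouts on 2 of its probe sets. On 1416122_at it read 4276, 3501 and 3125 in gastrin-infused knockouts, 3990, 3383 and 2439 in double knockouts, 1900, 2507 and 2373 in saline-infused knockouts, and 5015, 6428 and 4015 in wild type. The saline-infused values lay below all wild-type and all gastrin-infused values, and the double knockouts overlapped with the saline-infused knockouts. The log2 fold change for saline-infused knockouts against wild type was -1.17 ± 0.23 (limma adjusted p = 0.0406) on this probe set and -1.19 ± 0.22 (adjusted p = 0.0325) on 1430127_a_at. On 1430127_a_at it averaged 1478 ± 123 in gastrin-infused knockouts, 1560 ± 440 in double knockouts, 847 ± 80.2 in saline-infused knockouts and 1943 ± 366 in wild type (SD, n = 3 each). Of the other 5 Ccnd2 probe sets, 1434745_at and 1455956_x_at gave -0.65 and -0.89 in that comparison without passing (adjusted p = 0.062 and 0.0694), and 2 lay close to the noise.

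A further Ccnd2 probe set, 1448229_s_at, gave another pattern. It read 690, 803 and 760 in gastrin-infused knockouts, 1248, 1720 and 1000 in double knockouts, 614, 564 and 573 in saline-infused knockouts, and 568, 711 and 686 in wild type. The double-knockout values lay above those of every other group. Its log2 fold change for double knockouts was 1.15 ± 0.18 against saline-infused knockouts (limma adjusted p = 0.0102) and 0.98 ± 0.18 against wild type (adjusted p = 0.0225). For gastrin-infused against double knockouts it was -0.78 ± 0.18 (adjusted p = 0.0372). For saline-infused knockouts against wild type it was -0.16 (adjusted p = 0.69), so the Ccnd2 probe sets disagreed and no single direction can be given for the gene in the double knockouts.

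The calls of the Ccnd2 falls in saline-infused knockouts lay near the threshold. They were lost without any 1 of many arrays, some outside the comparison, while the fold changes stayed negative. On 1416122_at the call was lost when any 1 of 9 arrays was left out: each saline-infused array, each wild-type array, gastrin-infused replicates 2 and 3 and double-knockout replicate 2. Without 1 array its log2 fold change lay between -1.34 and -1.0, with adjusted p of 0.0297 to 0.12. On 1430127_a_at the call was lost without any 1 of the same arrays except double-knockout replicate 2, with values between -1.30 and -1.04 and adjusted p of 0.0134 to 0.101. On 1448229_s_at the call of double against saline-infused knockouts held without any 1 array (adjusted p of 0.00774 to 0.0386). Its call against wild type was lost without wild-type replicate 1, wild-type replicate 3 or double-knockout replicate 1, with adjusted p of 0.0146 to 0.0732. For gastrin-infused against double knockouts it was lost without any 1 of 9 arrays, namely all but double-knockout replicate 3 and wild-type replicates 1 and 2, with adjusted p of 0.0199 to 0.0994.

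The Gapdh ratio also bore on these calls. In wild type Ccnd2 on 1416122_at was highest on the array with the highest 3-prime to 5-prime ratio (6428 at 2.00), then 5015 at 1.51 and 4015 at 0.98. With the ratio as a covariate both falls in saline-infused knockouts were lost, with a log2 fold change of -0.95 on 1416122_at (limma adjusted p = 0.148) and of -1.0 on 1430127_a_at (adjusted p = 0.131). On 1448229_s_at the double knockouts still passed against saline-infused knockouts (1.14, adjusted p = 0.0254) and against wild type (0.99, adjusted p = 0.0406), while gastrin-infused against double knockouts did not (-0.78, adjusted p = 0.0591).

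**Figure D4:**
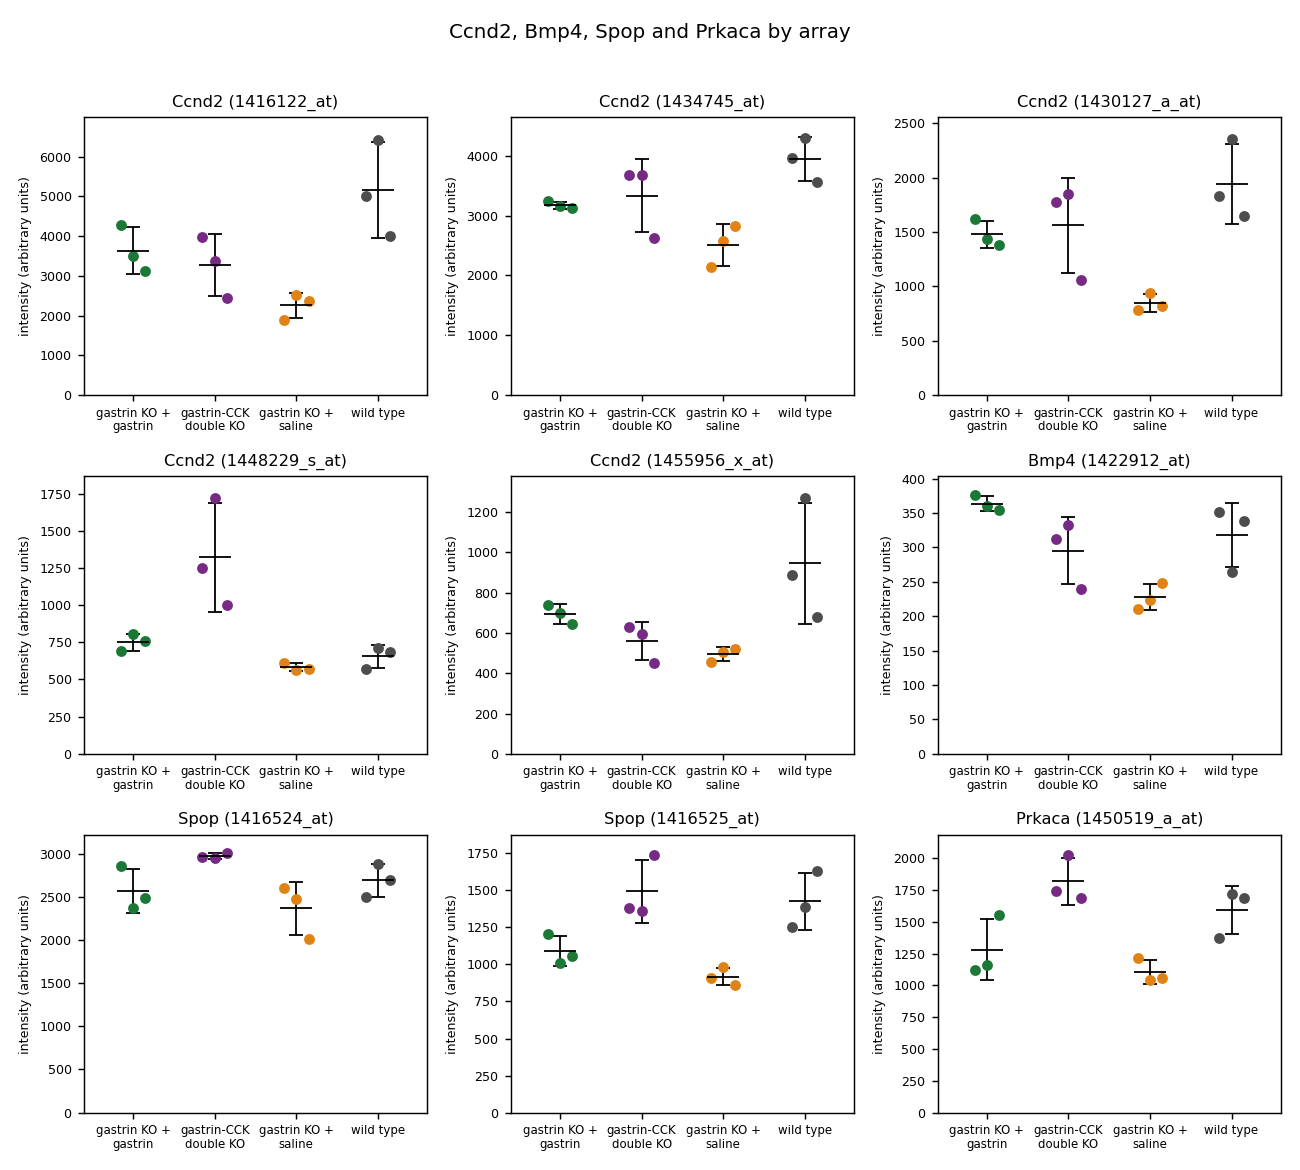
Intensity (arbitrary units, linear axis) of the 5 Ccnd2 probe sets above the noise on every array, Bmp4, 2 Spop probe sets and Prkaca by group, in the order gastrin-infused gastrin knockout, double knockout, saline-infused gastrin knockout and wild type. Points are single arrays, the bar is the mean and the error bar the SD (n = 3); Ccnd2 on 1416122_at is lower in the saline-infused knockouts than in wild type, whereas on 1448229_s_at the double knockouts are higher than the other groups.

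Spop encodes the ubiquitin ligase adaptor that marks Gli proteins for breakdown. On 1416525_at it read 1208, 1010 and 1054 in gastrin-infused knockouts, 1378, 1362 and 1740 in double knockouts, 911, 981 and 863 in saline-infused knockouts, and 1256, 1390 and 1633 in wild type. The saline-infused values lay below those of every other group. Its log2 fold change was 0.69 ± 0.13 for double against saline-infused knockouts (limma adjusted p = 0.0199) and -0.63 ± 0.13 for saline-infused knockouts against wild type (adjusted p = 0.0483). On the other Spop probe set, 1416524_at, the value for double against saline-infused knockouts was 0.34 ± 0.11 and did not pass (adjusted p = 0.109). The call against saline-infused knockouts was lost without saline-infused replicate 1 or 3 (adjusted p up to 0.0605), and that against wild type was lost without any 1 array except double-knockout replicate 3 (adjusted p up to 0.124). With the Gapdh ratio as a covariate the first was 0.75 and passed (adjusted p = 0.0285), and the second was -0.72 and did not (adjusted p = 0.0976).

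Prkaca encodes a catalytic subunit of protein kinase A, which holds the Gli proteins in check. It read 1124, 1163 and 1556 in gastrin-infused knockouts, 1741, 2027 and 1685 in double knockouts, 1216, 1043 and 1060 in saline-infused knockouts, and 1376, 1717 and 1686 in wild type. The double-knockout values lay above those of both infused groups, and at 1685 the lowest of them fell below 2 wild-type values. The log2 fold change for double against saline-infused knockouts was 0.72 ± 0.15 (limma adjusted p = 0.0264), and the call was lost without any 1 saline-infused array or without double-knockout replicate 1 or 2 (adjusted p up to 0.0807). With the Gapdh ratio as a covariate it was 0.70 and did not pass (adjusted p = 0.0596). For saline-infused knockouts against wild type the value of Prkaca was -0.52, which did not pass (adjusted p = 0.111).

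Bmp4, a mesenchymal growth factor gene induced by Hedgehog signals in the gut, did not pass any pairwise test. It read 376, 360 and 355 in gastrin-infused knockouts, 312, 333 and 240 in double knockouts, 211, 223 and 248 in saline-infused knockouts, and 351, 265 and 338 in wild type. The saline-infused values lay below all gastrin-infused and all wild-type values. The log2 fold change was 0.68 ± 0.14 for gastrin-infused against saline-infused knockouts (95% interval 0.36 to 1.00, limma adjusted p = 0.0592) and -0.48 ± 0.14 for saline-infused knockouts against wild type (interval -0.80 to -0.15, adjusted p = 0.13). The gastrin-infused comparison passed in 4 of its 20 alternatives, namely with quantile normalization, with 1 value per gene, without double-knockout replicate 3 (adjusted p = 0.0393) and without wild-type replicate 2 (adjusted p = 0.0497). The stroma and muscle sums given above were also higher on most gastrin-infused than saline-infused arrays, and their part was not tested.

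The other regulators of Hedgehog signalling that were followed did not pass either. Sufu, the protein that holds Gli factors in the cytoplasm, averaged 547 ± 47.4 in gastrin-infused knockouts, 433 ± 32.6 in double knockouts, 473 ± 51.2 in saline-infused knockouts and 451 ± 20.5 in wild type on 1420848_at (SD, n = 3 each). Its log2 fold change for gastrin-infused against double knockouts was 0.34 ± 0.10 (limma adjusted p = 0.0876). On the other Sufu probe set, 1450024_at, the means were 319, 389, 339 and 312 in the same group order. The double-knockout mean was the higher of those 2 groups there, so the Sufu probe sets disagreed. The co-receptor gene Boc was measurable on 1 of 3 probe sets, where the group means were 480, 390, 431 and 458 in the same group order. The co-receptor gene Cdon was above the noise on 6 of 12 arrays.

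Gas1, another co-receptor gene, was above the noise on all 12 arrays on 2 of its 3 probe sets. Its log2 fold change for double against saline-infused knockouts on 1456322_at was -0.71 ± 0.23 (limma adjusted p = 0.111). On 1448494_at the double-knockout mean was instead the higher, 217 ± 80 against 189 ± 58.4 (SD, n = 3 each), so these Gas1 probe sets disagreed. The third ligand gene, Dhh, averaged 121 in gastrin-infused knockouts, 95 in double knockouts, 211 in saline-infused knockouts and 111 in wild type on 1434959_at, close to the noise. Its other probe set, 1422127_at, was above the noise on 2 of 12 arrays, both double knockouts, and averaged -14.3 in gastrin-infused knockouts, 91 in double knockouts, -36.3 in saline-infused knockouts and 17.3 in wild type. Its double-knockout values lay above the saline-infused ones without passing (limma adjusted p = 0.0958), whereas on 1434959_at the double-knockout mean was the lower, so the Dhh probe sets disagreed. Ccnd1, the cyclin D1 gene, averaged 2160 in gastrin-infused knockouts, 1970 in double knockouts, 1885 in saline-infused knockouts and 2000 in wild type on 1448698_at. In the same group order it averaged 1922, 2104, 2010 and 2012 on the brightest Ccnd1 probe set, 1417420_at, and 555, 471, 475 and 450 on 1417419_at. The order of the groups thus differed between the Ccnd1 probe sets.

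The genes whose log2 intensity followed each Hedgehog gene most closely over the 12 arrays were taken as the 3 with the highest Pearson r among about 10386 brighter probe sets (those with a mean not below the median), with the groups pooled and no test. For Shh they were Far1 (r = 0.86), Fkbp3 (0.86) and Lamtor5 (0.83), and for Ihh Klhl5 (0.90), Luc7l2 (0.87) and Ier2 (0.86). For the brighter Ptch1 probe set they were Dip2b (0.92), Cant1 (0.89) and Ahr (0.88), and for the brighter Smo probe set Eif2b2 (0.88), Apbb1 (0.85) and Ccr6 (0.84). For Gli1 they were Lpcat1 (0.92), Trim21 (0.86) and 2810459M11Rik (0.86), for Gli2 Slc2a5 (0.87), Mcrs1 (0.85) and Med12 (0.85), and for Gli3 Gm12185 (0.89), Acvr1 (0.85) and Rad54l2 (0.84). The 12 points share groups, RNA preparation and scaling, and these genes are the extremes of a large number of coefficients.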

How the data were processed

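Fundic mucosal scrapings were profiled on 12 one-colour arrays, 3 per group, with about 1 µg of total RNA labelled with biotin, per the labels' protocols. The deposited table holds intensities on a linear scale, 1 per probe set and array, some below 0. How the authors scaled, summarised or background-corrected them is not given in the sources used here, nor is a genome build. No further scaling was applied. Of 22690 probe sets, 64 controls were left out before testing. Symbols came from the platform annotation: 20380 probe sets had 1 symbol, 691 had several and 1555 were not in it. All 8 member symbols are current in the RefSeq gene table of GRCm38.p6, which was used for names only.

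Values under 16 (7.57% to 8.47% per array) were raised to 16 and log2 values taken. An array's noise level is minus its percentile 1, and at-least folds use it for the dim group. One mean per group was fitted over all 12 arrays with limma 3.58.1 in R 4.3.3 (8 residual and 1.10 prior degrees of freedom), followed by 6 contrasts and a moderated F-test with Benjamini-Hochberg adjustment over 22626 probe sets. The comparisons share arrays. The test was tried on simulated data. Group values are means ± SD of intensities, ± beside a log2 fold change is its standard error, and the number of arrays limits the precision. Replicate numbers did not pair the samples: of 18 same-numbered pairs across groups, 5 had deviations correlated above 0.1 (r between -0.36 and 0.51).

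The Hedgehog genes and all lists (4 pathway lists and markers of parietal, surface mucous, chief, stromal and muscle, forestomach, intestinal and pancreatic cells) were chosen with earlier results of these data known. All probe sets of the 8 genes are reported. Pathway genes were named where a probe set passed in any comparison, or as Sufu, Dhh, Boc, Cdon, Gas1, Bmp4 and Ccnd1 whatever their result. Alternatives were quantile normalization, median centring, a filter leaving out probe sets below the median, floors of 1 and of 64, fitting only the 2 groups compared, a replicate block, the Gapdh ratio as a covariate, 1 value per gene, and leaving out each array. Python 3.11.15 with matplotlib 3.10.9 drew the figures.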

Additional observations from a re-analysis of the deposited data

How the results depend on the processing

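The count of Hedgehog probe sets past the test was recomputed 146 times over the 6 pairwise comparisons and the F-test, and 142 of these counts were 0, as reported. With only probe sets at or above the median of intensity, where fewer are tested, the count was 1 for double knockouts against wild type and 1 in the F-test, Ptch1 1450824_at in both (adjusted p = 0.0311 and 0.0327). Leaving out 1 array gave counts of 0 to 1 in the F-test and for gastrin-infused against double knockouts, and 0 elsewhere. The 1 was Hhip 1438083_at without gastrin-infused replicate 3 (adjusted p = 0.0291 and 0.0193), a probe set within the noise, and the cause was not tested. Of 1422 recomputed fold changes of the Hedgehog probe sets above and within the noise, 2 passed, 1387 moved by under 1 standard error and 33 moved by more. None had passed as reported, so there was no called direction that could turn. Signs of differences that did not pass could change. For Gli1 in double against saline-infused knockouts the log2 fold change was 0.16 as reported and -0.18 at the lowest. With the replicate number as a block, which the samples' deviations did not bear out as a pairing, the count of Hedgehog probe sets was 0 in every comparison. Counts over all probe sets moved far more. For saline-infused knockouts against wild type they were 470 as reported, 239 with the block, 47 with the Gapdh ratio as a covariate, 22 with only the 2 groups fitted and 827 with the filter, for gastrin-infused against saline-infused knockouts 282, 140, 152, 20 and 705, and for double knockouts against wild type 936, 703, 607, 43 and 1299. For double against saline-infused knockouts they were 1352, 1145, 911, 208 and 1822, for gastrin-infused against double knockouts 1319, 1131, 1145, 295 and 1736, and for gastrin-infused knockouts against wild type 25, 8, 12, 3 and 74, in the same order of settings. Of the pathway calls, Ccnd2 1448229_s_at in double against saline-infused knockouts passed in 19 of 20 alternatives, Spop 1416525_at in that comparison in 17 of 20, and Ccnd2 1416122_at in saline-infused knockouts against wild type in 7 of 20 (adjusted p of 0.00662 to 0.148). Dim values limit Hhip and 1 Gli2 probe set, which allow no statement on change.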
